A study of Homo sapiens with 6 samples.

Results

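The 9 genes described here encode cell-surface proteins that are targets or candidate targets of neuroblastoma immunotherapy, the enzymes that make the ganglioside GD2, and surface ligands that restrain immune cells. They were taken by symbol from the deposited table of raw read counts, 9 of its 25370 rows, and every one was present. CD276, GPC2, L1CAM and NCAM1 are surface targets, B4GALNT1 and ST8SIA1 are ganglioside synthases, and CD274, CD47 and CD200 are inhibitory ligands. RNA came from cultured human neuroblastoma lines. The 6 libraries were Be2C cells (BE2C) overexpressing LMO1 (2 libraries), Kelly cells (1 library), unmodified Be2C cells, called parental here (1 library), and Be2C cells carrying a vector control (2 libraries). LMO1 encodes a LIM-domain protein that bridges transcription factors, and the study concerns its action together with MYCN, the oncogene amplified in both lines. The labels name no promoter for the LMO1 construct and do not say whether the modified cells were a clone or a pool.

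GD2 is a sialic acid-bearing glycolipid that most neuroblastomas display, and antibodies against it are in clinical use. It is built stepwise from lactosylceramide: ST3GAL5 makes GM3, ST8SIA1 (GD3 synthase) adds a further sialic acid to give GD3, and B4GALNT1 (GM2/GD2 synthase) adds N-acetylgalactosamine to give GD2. CD276 (B7-H3), the heparan sulphate proteoglycan GPC2, and the neural adhesion molecules L1CAM (CD171) and NCAM1 (CD56) are protein targets of antibodies or engineered T cells. CD274 (PD-L1) engages PD-1 on T cells, CD47 engages SIRPA on macrophages, and CD200 engages its receptor on myeloid cells. RNA counts say nothing direct about the amount of protein or of GD2 on the cell.

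Total counts ran from 18737591 to 59512958 per library, so that 3 counts, the most that a count of 0 allows, correspond to 0.0503 to 0.157 CPM (read counts scaled to library size, with TMM factors over the 6 libraries). LMO1 was at 6.55 and 5.85 CPM in the LMO1 libraries, 94.1 CPM in Kelly, 1.93 CPM in parental cells and 1.05 and 0.926 CPM in the vector libraries. All 12 neuroblastoma markers were tested, although TH stayed below 7 CPM in every BE2C library. Of 12 haematopoietic markers, 9 were below 1 CPM in all 6 libraries, with 3 of the 12 at 0 in all, and the summed level ran from 9.16 to 11.03 CPM. Summed fibroblast markers were at 286 and 292 CPM with LMO1, 197 CPM in Kelly, 359 CPM in parental cells and 260 and 269 CPM with vector. THY1 made up most of that sum in the BE2C libraries other than parental, and single markers moved in opposite directions. With LMO1 over vector, COL3A1 fell by 1.80 on the log2 scale (edgeR adjusted p = 8.31e-17), while LUM rose by 1.06 (2.14e-09), DCN by 0.84 (1.24e-10) and THY1 by 0.19 (0.000153). DCN was at 37.0 and 34.0 CPM with LMO1, 0.201 CPM in Kelly, 102 CPM in parental cells and 18.8 and 20.9 CPM with vector. The part of these markers in the results was not tested. In RNA from whole cultures, fewer cells with a transcript and less transcript per cell cannot be told apart. The parental and Kelly libraries stood apart in replication-dependent histone genes, which took 0.0138% of counts in Kelly and 0.0423% in parental cells, against 1.23% in each LMO1 library and 1.01% and 1.02% in the vector libraries. The labels name the same library kit for all 6. The bearing of this difference on any ratio that uses the parental or Kelly library was not tested.

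**Figure D1:**
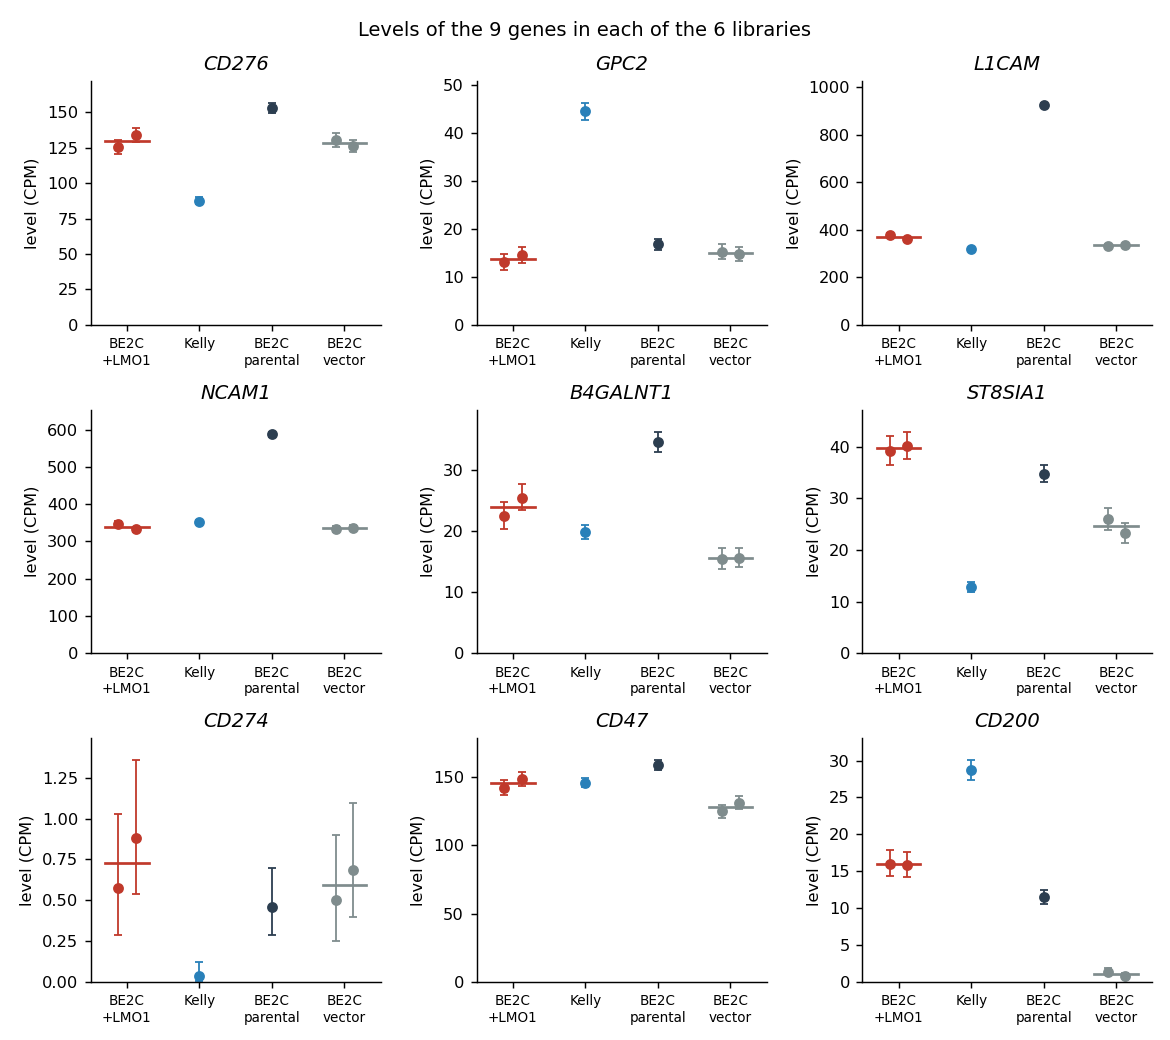
TMM-scaled level (CPM, y axis) of each gene in the 6 libraries (x axis, by group). Points are libraries with exact 95% Poisson intervals for counting error, and horizontal bars are means of 2 libraries. CD200 was near 1 CPM in the vector libraries and at 11.5 CPM or above in the other libraries, and L1CAM and NCAM1 were highest in the parental library.

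Forced LMO1 went with more RNA for both GD2-pathway synthases and for CD200, and with small rises of L1CAM and CD47, while CD276, NCAM1, GPC2 and CD274 did not pass the test. All 9 genes passed the filter on low counts. Of these, 5 were higher and 0 lower with LMO1 than with vector at an edgeR adjusted p below 0.05. Among all 15480 genes tested, 15.9% were called higher, 15.1% lower and 31.0% in either direction. For each of the 5 genes called, the unmodified parental library was also above the vector mean, as it was for NCAM1, CD276 and GPC2. Only for CD274 was it below. Both comparisons share the vector libraries. The median log2 ratio of parental over vector was 0.053 over 11727 genes reaching 5 CPM on either side. The parental library was above the LMO1 mean for L1CAM (2.50-fold), B4GALNT1 (1.44-fold) and CD47 (1.09-fold), and below it for CD200 (0.721) and ST8SIA1 (0.877). The LMO1 and vector libraries did not overlap for 6 of the 9 genes, and for 63.7% of all genes tested. The median log2 fold change of the 9 genes was 0.19, and that of all genes tested was 0.00083. The genes were chosen with earlier results of these data known, so these counts describe them and do not set them apart from other genes.

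**Figure D2:**
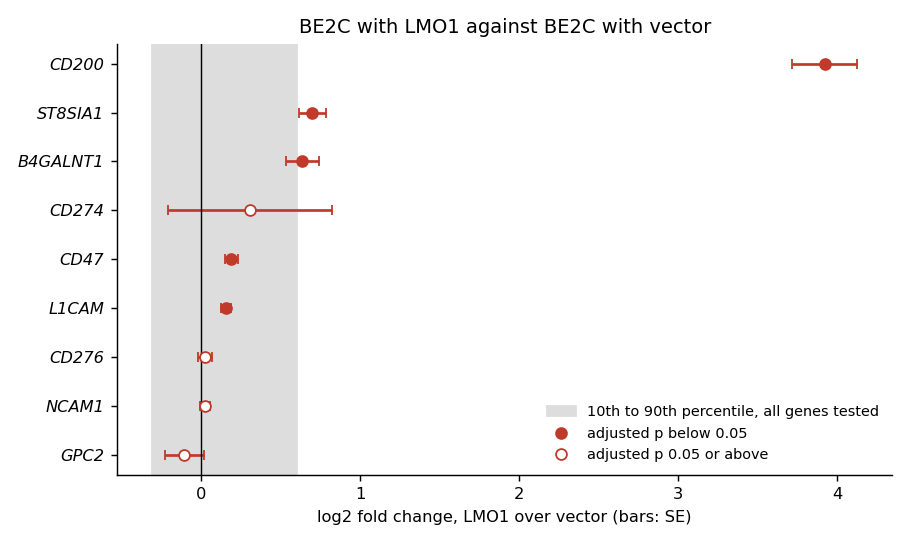
Log2 fold change of each gene with LMO1 over vector (x axis, bars are SE, 2 libraries per group). Filled points passed the edgeR test at an adjusted p below 0.05, and the grey band spans the 10th to 90th percentile of all genes tested, from -0.31 to 0.60. CD200 lies far outside the band at 3.92, ST8SIA1 (0.70) and B4GALNT1 (0.64) lie just above its upper end, and the other 6 genes lie inside it.

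CD276, an immune-regulatory member of the B7 family, was read at 125 and 134 CPM with LMO1, 87.7 CPM in Kelly, 153 CPM in parental cells and 130 and 126 CPM with vector. The LMO1 and vector libraries overlapped, with a log2 difference of 0.02 (SE 0.0441, edgeR adjusted p = 0.736). Kelly was lowest, at 0.574 of the parental level (95% interval 0.554 to 0.595, counting error only, as for every interval here). CD276 was the third most abundant of the 9 genes per length in each BE2C group, at 29.1 ± 1.34 CPM per kb of exon with LMO1 and 28.8 ± 0.692 CPM per kb with vector (SD, n = 2 each).

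GPC2, a glypican of the developing nervous system, was read at 13.1 and 14.5 CPM with LMO1, 44.5 CPM in Kelly, 16.7 CPM in parental cells and 15.2 and 14.7 CPM with vector. Kelly was far above every BE2C library, at 2.65-fold the parental level (2.45 to 2.88). The parental value was the highest among the BE2C libraries, 1.12-fold over vector (1.01 to 1.24) and 1.21-fold over LMO1 (1.09 to 1.35). Its own counting interval met those of both vector libraries and of LMO1 replicate 2. Both LMO1 libraries were below both vector libraries. LMO1 over vector gave a log2 difference of -0.11 (SE 0.121, edgeR adjusted p = 0.551) from 250 to 365 counts per modified library.

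L1CAM was the most abundant of the 9 genes per length in every group. Its level was 378 and 362 CPM with LMO1, 317 CPM in Kelly, 924 CPM in parental cells and 333 and 335 CPM with vector. Both LMO1 libraries were above both vector libraries, and L1CAM rose by a log2 value of 0.15 (SE 0.0312, edgeR adjusted p = 0.000107). This is 1.11-fold. The parental library was 2.77-fold above vector (2.72 to 2.82) and 2.50-fold above LMO1 (2.46 to 2.55), so the difference between the separately deposited BE2C libraries was much larger than that between LMO1 and vector. Kelly was at 0.343 of the parental level (0.338 to 0.349). The annotation places exons of U52112.1 over 401 bases, or 7.80%, of the L1CAM exons on the same strand, so reads there cannot be assigned to either gene even by strand.

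NCAM1, whose polysialylated form is abundant on neuroblastoma cells, was at 346 and 332 CPM with LMO1, 353 CPM in Kelly, 588 CPM in parental cells and 334 and 337 CPM with vector. The LMO1 and vector libraries overlapped, with a log2 fold change of 0.02 (SE 0.0314, edgeR adjusted p = 0.643). The count ratio of LMO1 to vector was 1.01 (0.987 to 1.03). The parental library alone stood above, at 1.75-fold the vector level (1.72 to 1.79). Kelly came next. Its counting interval met that of LMO1 replicate 1 and lay above those of LMO1 replicate 2 and both vector libraries. The annotation places exons of NCAM1-AS1 against 2.28% of the NCAM1 exon length on the opposite strand, and those of AP000802.1 against 1.21%. NCAM1-AS1 averaged 0.4998 ± 0.0403 CPM with LMO1, against 0.795 ± 0.412 CPM with vector (SD, n = 2 each), far below NCAM1.

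ST8SIA1, the enzyme that commits GM3 to the disialylated series leading to GD2, was at 39.2 and 40.2 CPM with LMO1, 12.8 CPM in Kelly, 34.8 CPM in parental cells and 25.9 and 23.3 CPM with vector. Both LMO1 libraries were above both vector libraries. ST8SIA1 rose by a log2 value of 0.70 (SE 0.0829, edgeR adjusted p = 2.22e-09), which is 1.62-fold. The order was LMO1, parental, vector and Kelly. The parental level was 0.876 of the LMO1 level (0.818 to 0.938), its interval meeting that of LMO1 replicate 1 and lying below that of replicate 2, and each later step was larger. Kelly was at 0.367 of the parental level (0.336 to 0.400). RNU1-149P, annotated on the same strand, shares 161 bases, or 1.47%, of the ST8SIA1 exons.

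B4GALNT1, which makes GD2 from GD3, was at 22.4 and 25.4 CPM with LMO1, 19.8 CPM in Kelly, 34.5 CPM in parental cells and 15.4 and 15.5 CPM with vector. It rose with LMO1 by a log2 value of 0.64 (SE 0.105, edgeR adjusted p = 3.43e-06), or 1.55-fold, close to the fold of ST8SIA1. Unlike ST8SIA1, its highest level was in parental cells, 2.23-fold above vector (2.04 to 2.43) and 1.43-fold above LMO1 (1.33 to 1.55). Kelly was at 0.575 of the parental level (0.533 to 0.620). SLC26A10, which was taken up after its values were seen, shares 237 bases, or 5.58%, of the B4GALNT1 exons on the opposite strand. It rose with LMO1 by 1.57 (SE 0.233, edgeR adjusted p = 4.04e-07), to 6.29 ± 0.804 CPM against 2.10 ± 0.444 CPM with vector (SD, n = 2 each). Kelly had 9.70 CPM of it and parental cells 12.2 CPM. The strand setting of the counting is not given in the sources used here, so reads of this overlap cannot be assigned.

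The balance between the synthases was also read. ST8SIA1 per length was 0.679 and 0.616 of B4GALNT1 with LMO1 and 0.653 and 0.583 with vector, and these values overlap. The ratio was 0.250 in Kelly and 0.392 in parental cells, below all 4 modified libraries. Exon lengths of 10.9 kb for ST8SIA1 and 4.25 kb for B4GALNT1 come from a later annotation than that of the counts, so the ratio compares libraries better than genes.

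The remaining enzymes of ganglioside synthesis were read in the order of the pathway. Of 14 genes, 13 were tested, with 5 higher and 1 lower with LMO1, against 15.9% higher and 15.1% lower over all genes tested. Without the 2 synthases above, 3 of 11 were higher and 1 lower, with a median log2 fold change of 0.07. UGCG, which makes glucosylceramide at the entry, fell by 0.26 (SE 0.0945, edgeR adjusted p = 0.0285), at 23.3 and 20.6 CPM with LMO1 and 25.7 and 27.0 CPM with vector. B4GALT6, a lactosylceramide synthase, rose by 1.26 (SE 0.175, edgeR adjusted p = 9.81e-08), although its LMO1 libraries lay apart at 13.9 and 9.16 CPM, against 4.63 and 4.95 CPM with vector. B4GALT5, which makes the same product and was far more abundant, did not pass the test (log2 -0.03). ST3GAL5, the GM3 synthase and thus the source of the substrate of ST8SIA1, had 11.8 and 11.7 CPM with LMO1, against 13.0 CPM in both vector libraries, and did not pass (edgeR adjusted p = 0.436). Downstream, ST6GALNAC5, which adds sialic acid to form alpha-series gangliosides, rose by 0.54 (SE 0.0863) and ST3GAL1, a sialyltransferase of glycoproteins and gangliosides, by 0.46 (SE 0.104). B3GALT4, which extends GD2 to GD1b, stayed below 3 CPM in all libraries and did not pass (log2 0.10, edgeR adjusted p = 0.853).

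**Figure D3:**
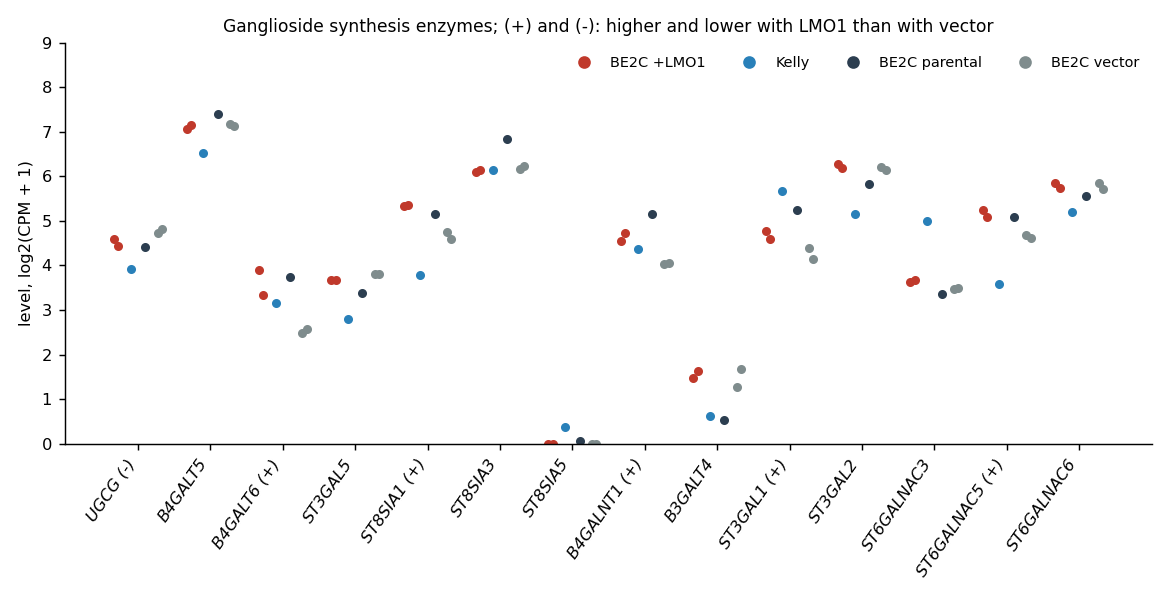
Level of 14 ganglioside synthesis enzymes on the log2(CPM + 1) scale (y axis) in pathway order (x axis), with a point for each library. Marks after a name show an edgeR adjusted p below 0.05 with LMO1 against vector. ST8SIA1 and B4GALNT1 carry a plus, and ST3GAL5 between UGCG and ST8SIA1 carries none. ST8SIA1 and ST6GALNAC5 were lowest in Kelly, as were UGCG, B4GALT5, ST3GAL5, ST3GAL2 and ST6GALNAC6.

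Enzymes that supply sialic acid gave 2 higher and 1 lower of 6 tested, against 15.9% higher and 15.1% lower over all genes tested. GNE, which performs the rate-limiting steps of sialic acid synthesis, rose by 0.83 (SE 0.112, edgeR adjusted p = 5.74e-08), at 21.2 and 22.4 CPM with LMO1 and 13.0 and 11.7 CPM with vector. CMAS, which activates sialic acid, rose by 0.30 (SE 0.0747), and SLC35A1, which carries activated sialic acid into the Golgi, fell by 0.22 (SE 0.0781). Kelly had 87.2 CPM of GNE, against 16.1 CPM in parental cells. Of 13 genes of ganglioside breakdown, 2 were higher and 3 lower with LMO1. GM2A, the activator that presents GM2 for cleavage, rose by 0.86 (SE 0.162), and PSAP, the saposin precursor, by 0.11 (SE 0.0234). Among the lower genes, the sialidase NEU1 fell by 0.43 (SE 0.0763) and the sialic acid esterase SIAE by 0.42 (SE 0.0945). Kelly had 0.722 CPM of SIAE, against 26.9 CPM in parental cells.

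CD200 showed the largest change of the 9 genes. It was read at 16.0 and 15.8 CPM with LMO1 (306 and 360 counts), 28.7 CPM in Kelly, 11.5 CPM in parental cells, and 1.33 and 0.805 CPM with vector (29 and 20 counts). The vector libraries were the low ones: every other library was several times higher, and no counting interval reached theirs. CD200 rose with LMO1 by a log2 value of 3.92 (SE 0.205, edgeR adjusted p = 6.15e-21), which ranked 15 among all 15480 genes tested. From the counts alone the ratio was 15.2 (11.3 to 20.7). The vector level, at 49 counts in all, sets this precision. The parental library was 10.9-fold above vector (8.16 to 15.0) and stood at 0.721 of the LMO1 level (0.643 to 0.809). The 2 comparisons share the vector libraries. Kelly was 2.49-fold above parental cells (2.26 to 2.75).

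The stretch just before the gene start is shown for 3 of these genes: CD200 and ST8SIA1, which had the highest folds with LMO1, and GPC2, which was high in Kelly and did not pass with LMO1. Sequences are from RefSeq on GRCh38.p14, a later build than the hg19 of the counts, and 7 of the 9 genes had an entry, not B4GALNT1 or NCAM1. Each is 250 bases long, 5′ to 3′ on the strand of the gene, and ends at the base before the annotated start. The windows are chr3:112332906-112333155 on the plus strand for CD200, chr12:22334708-22334957 on the minus strand for ST8SIA1 and chr7:100177382-100177631 on the minus strand for GPC2. Capitals mark E-boxes (CANNTG), the general element bound by basic helix-loop-helix factors.
CD200: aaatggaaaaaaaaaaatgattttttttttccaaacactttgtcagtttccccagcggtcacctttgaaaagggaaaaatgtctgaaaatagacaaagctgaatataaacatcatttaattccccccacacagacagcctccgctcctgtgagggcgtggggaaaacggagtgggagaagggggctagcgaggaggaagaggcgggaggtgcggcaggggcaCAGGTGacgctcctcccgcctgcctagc
ST8SIA1: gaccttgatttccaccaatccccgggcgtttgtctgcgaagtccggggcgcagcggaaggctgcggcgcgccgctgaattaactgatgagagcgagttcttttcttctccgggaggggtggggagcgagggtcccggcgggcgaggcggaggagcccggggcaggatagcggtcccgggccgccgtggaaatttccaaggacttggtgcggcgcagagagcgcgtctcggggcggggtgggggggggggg
GPC2: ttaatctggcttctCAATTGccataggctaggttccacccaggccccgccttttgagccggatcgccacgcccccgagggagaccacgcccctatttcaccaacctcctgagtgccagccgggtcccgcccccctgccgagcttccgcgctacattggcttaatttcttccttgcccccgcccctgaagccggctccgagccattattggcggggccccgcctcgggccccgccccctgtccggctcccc

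The CD200 window held 1 E-box, CAGGTG, close to the start, the GPC2 window held 1, CAATTG, and the ST8SIA1 window held none. An E-box was present in 61.8% of 35116 such windows over all genes, with a median of 1. The GATA element NGATAA, searched on both strands, was present in 20.4% of windows and in no window of the 7 genes. The 2 windows of L1CAM, which overlap, held 2 and 3 E-boxes, that of CD274 held 1, and those of CD47 and CD276 held none. The GC share was 50.0% for CD200, 69.2% for ST8SIA1 and 66.8% for GPC2, against a median of 58.0% over all windows. A match describes letters in a window and does not show that a factor binds there.

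CD47, the macrophage checkpoint ligand, was at 142 and 149 CPM with LMO1, 146 CPM in Kelly, 159 CPM in parental cells and 125 and 131 CPM with vector. It varied least of the 9 genes, by 1.27-fold over all 6 libraries. Both LMO1 libraries were above both vector libraries, and CD47 rose by 0.19 (SE 0.0428, edgeR adjusted p = 0.000485), which is 1.14-fold. This call was lost without LMO1 replicate 2 (log2 0.16, edgeR adjusted p = 0.0512). Kelly and parental cells were close, with a ratio of 0.919 (0.891 to 0.948). Around CD47, 3 of 7 tested genes of its axis were higher with LMO1 and 2 lower, and without CD47 itself 2 of 6 were higher. Over all genes tested 15.9% were higher and 15.1% lower. QPCTL, the glutaminyl cyclase that modifies CD47 for SIRPA binding, fell by 0.45 (SE 0.131, edgeR adjusted p = 0.00614), while its paralogue QPCT rose by 1.51 (SE 0.169). CALR, whose surface form promotes engulfment, fell by 0.19 (SE 0.0299), and its receptor LRP1 rose by 0.36 (SE 0.0594). LRP1 averaged 72.0 ± 1.31 CPM with LMO1, against 56.4 ± 0.0796 CPM with vector (SD, n = 2 each), and Kelly had 688 CPM of it, against 298 CPM in parental cells.

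CD274 was barely detected. Counts were 11 and 20 with LMO1, 2 in Kelly, 22 in parental cells and 11 and 17 with vector, which is 0.576 and 0.880 CPM with LMO1, 0.0336 CPM in Kelly, 0.460 CPM in parental cells and 0.504 and 0.684 CPM with vector. All BE2C groups overlapped within counting error, and LMO1 over vector gave a log2 difference of 0.30 (SE 0.515, edgeR adjusted p = 0.707). The count ratio of LMO1 to vector was 1.24 (0.717 to 2.14), an interval that spans lower and higher values. Kelly, with 2 counts, was at 0.0729 of the parental level (0.00831 to 0.297). CD274 was the least abundant of the 9 genes per length in every group, at 0.198 ± 0.0584 CPM per kb with LMO1 and 0.161 ± 0.0346 CPM per kb with vector (SD, n = 2 each).

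Of 25 genes (the B7 family, other checkpoint ligands and the enzyme IDO1), 19 were tested, with 5 higher and 1 lower with LMO1. Over all genes tested 15.9% were higher and 15.1% lower. Without CD276, CD274, CD200 and CD47, 3 of 15 were higher and 1 lower, with a median log2 fold change of 0.20. The higher genes were CD24, a ligand of SIGLEC10, by 0.31 (SE 0.0353), PVRL2 (nectin-2), by 0.36 (SE 0.0685), and the butyrophilin BTN2A2, by 0.42 (SE 0.154). PVRL3 (nectin-3) fell by 0.29 (SE 0.064). CD24 has near-identical copies and BTN2A2 close paralogues, so their reads are uncertain. The classical costimulators CD80 and CD86 and the second PD-1 ligand PDCD1LG2 were below 1 CPM in every library and were not tested.

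Glypicans and adhesion molecules related to the surface targets were then read. Of 6 glypicans 5 were tested. GPC3 rose by 2.17 (SE 0.235, edgeR adjusted p = 1.84e-10), at 7.07 and 7.97 CPM with LMO1 and 2.06 and 1.33 CPM with vector, and GPC1 fell by 0.45 (SE 0.0578), at 61.8 and 57.1 CPM with LMO1 and 82.0 and 81.5 CPM with vector. GPC3, GPC6 and GPC2 were each at least 2-fold higher in Kelly than in parental cells, 3 of the 4 that reached 5 CPM. Of 12387 genes reaching that level on either side, 15.3% were at least 2-fold higher in Kelly and 13.4% at least 2-fold lower. Each side was 1 library. Kelly had 38.2 CPM of GPC1, against 73.1 CPM in parental cells. A wider list joined L1 and NCAM family genes with CNTN1, CNTN2, ALCAM and MCAM, which are outside both families. In it 5 of 9 tested genes were higher and 1 lower with LMO1, and without L1CAM and NCAM1 4 of 7 were higher. Of all genes tested, 15.9% were higher and 15.1% lower. Within the families NFASC (log2 -0.08, edgeR adjusted p = 0.377) and NCAM2 (log2 0.08, edgeR adjusted p = 0.431) did not pass. MCAM rose by 0.46 (SE 0.043), ALCAM by 0.34 (SE 0.0335), CNTN2 by 0.37 (SE 0.114) and NRCAM by 0.23 (SE 0.0296). CNTN1 (contactin) fell by 0.33 (SE 0.0294). All of these, CNTN1 included, are immunoglobulin-family adhesion proteins. Of the polysialyltransferases that modify NCAM1, ST8SIA4 rose by 0.92 (SE 0.155, edgeR adjusted p = 5.12e-06), and ST8SIA2 did not pass (log2 -0.24, edgeR adjusted p = 0.0624). ST8SIA2 was at 20.1 and 18.6 CPM with LMO1, 52.2 CPM in Kelly, 101 CPM in parental cells and 23.5 and 22.3 CPM with vector.

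Kelly cells and parental BE2C cells were compared without a test, with 1 library on each side. Of the 9 genes, 8 reached 5 CPM on either side. GPC2 and CD200 were at least 2-fold higher in Kelly, and L1CAM and ST8SIA1 at least 2-fold lower. Among 12387 genes at that level, 15.3% lay 2-fold or more above parental cells and 13.4% as far below. Log2 ratios of CPM with 1 CPM added were 1.36 for GPC2 and 1.25 for CD200, and -1.54 for L1CAM and -1.38 for ST8SIA1. CD276 (-0.79), B4GALNT1 (-0.77) and NCAM1 (-0.73) were lower by less than 2-fold, and CD47 was at -0.12. Against the mean of all 5 BE2C libraries the L1CAM value was -0.55, below 2-fold, and the NCAM1 and B4GALNT1 values were -0.13 and -0.18, the parental library being the highest of the 5 for these 3 genes. GPC2 was at 1.52 and CD200 at 1.55 on that scale. In the wider pathway, 1 of 12 ganglioside synthesis genes was at least 2-fold higher in Kelly and 2 lower. The higher one was the sialyltransferase ST6GALNAC3 (31.01 CPM in Kelly, 9.21 CPM in parental cells), and the lower ones were ST8SIA1 and ST6GALNAC5 (11.04 CPM in Kelly, 32.8 CPM in parental cells). Among checkpoint ligands FGL1, a ligand of LAG3, differed most, with 0.0671 CPM in Kelly, against 35.96 CPM in parental cells. Among adhesion proteins, NRCAM had 63.02 CPM in Kelly, against 548 CPM in parental cells, and MCAM had 13.4 CPM in Kelly, against 108 CPM in parental cells.

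**Figure D4:**
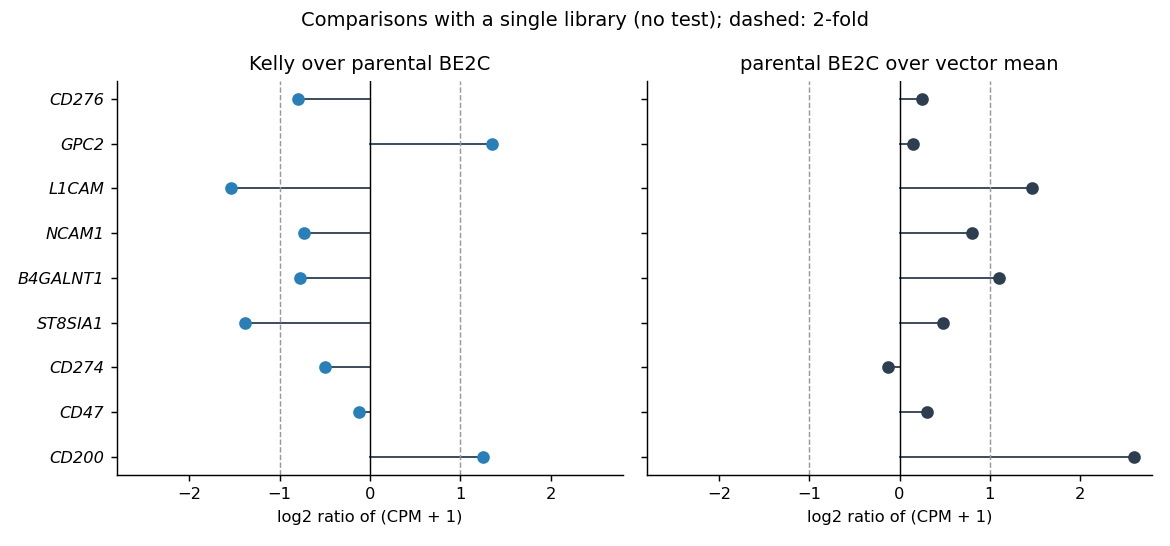
Log2 ratio of CPM with 1 CPM added (x axis) for each gene, Kelly over parental BE2C on the left and parental BE2C over the vector mean on the right. Each ratio uses a single Kelly or parental library and has no test, and dashed lines mark 2-fold. CD200 lies beyond 2-fold upward in both panels, and L1CAM lies beyond it downward on the left and upward on the right.

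The unmodified line was also compared with the mean of its vector controls. L1CAM, B4GALNT1 and CD200 were at least 2-fold higher in parental cells and none of the 9 genes was at least 2-fold lower, among 11727 genes of which 8.79% lay 2-fold or more above the vector mean and 2.58% as far below. This ratio shares the vector libraries with the LMO1 comparison and the parental library with the Kelly comparison. The log2 ratios were 2.60 for CD200, 1.47 for L1CAM, 1.11 for B4GALNT1, 0.81 for NCAM1 and 0.48 for ST8SIA1. CD47 (0.31), CD276 (0.25) and GPC2 (0.15) were nearer to the vector level, and CD274 was at -0.13 on 22 parental counts. These ratios have no replicate on the parental side, and the histone shares given above differ between the parental and vector libraries. The part of that difference was not tested.

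Genes with profiles most like those of the 4 varying genes were found by the Euclidean distance between centred log2(CPM + 1) values over the 6 libraries, among 14462 other genes averaging 1 CPM or more. For GPC2 these were PLEKHA8 (distance 0.142), COG6 (0.144) and MGC57346 (0.151), all high in Kelly and flat elsewhere. For L1CAM they were INF2 (0.181), IGF1R (0.186) and DIAPH1 (0.197), all highest in the parental library. IGF1R, the insulin-like growth factor receptor, was at 206 and 199 CPM with LMO1, 172 CPM in Kelly, 565 CPM in parental cells and 171 and 179 CPM with vector. For ST8SIA1 they were PLCH2 (0.144), LOC101927668 (0.159) and TRHDE-AS1 (0.209). LOC101927668 had 1.78 CPM in parental cells and 0.0168 CPM in Kelly, and TRHDE-AS1 had 3.27 and 0.487 CPM. At such low levels the added 1 CPM shrinks the log2 differences, so their likeness to ST8SIA1 depends on it. For CD200 the nearest were NSUN5 (1.08), NLGN4X (1.12) and NEDD9 (1.18). The distance is not scaled to the spread of a gene, so it cannot rank closeness between CD200 and the other 3. The SD of log2(CPM + 1) over the 6 libraries was 1.67 for CD200, 0.63 for GPC2, 0.59 for L1CAM and 0.60 for ST8SIA1. NEDD9, a scaffold protein of focal adhesions, was at 34.4 and 31.4 CPM with LMO1, 68.6 CPM in Kelly, 18.4 CPM in parental cells and 6.55 and 6.60 CPM with vector.

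The 9 genes lie on chromosomes 3, 7, 9, 11, 12, 15 and X. CD47 and CD200 share chromosome 3, and B4GALNT1 and ST8SIA1 share chromosome 12. Of the 36 tested protein-coding genes nearest to them, 2 on each side, 9 were higher with LMO1 (25.0%) and 3 lower (8.33%). Over all genes tested these shares were 15.9% and 15.1%. Beside CD200, TAGLN3 rose by 0.54 (SE 0.104) and SLC35A5 by 0.20 (SE 0.0677), while C3orf52 (log2 1.09, edgeR adjusted p = 0.166) and ATG3 (log2 0.10, edgeR adjusted p = 0.261) did not pass. All were far below the log2 value of 3.92 for CD200. Beside ST8SIA1, its neighbour CMAS rose as given above and ETNK1 rose by 0.34 (SE 0.0541).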

How the data were processed

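Gene expression was measured by paired-end sequencing of total RNA, per the labels' protocols. The authors deposited unnormalized counts per gene symbol. Per the submitters' processing notes, TopHat2 2.0.6, HTSeq and hg19 were used. The labels' protocols name a stranded total RNA kit. The annotation and strand setting are not given in the sources used here. Of 25370 rows, 28 carry date-like symbols and 0 per-sample columns were left unused.

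The LMO1 and vector libraries were fitted in R 4.3.3 by edgeR 4.0.16 with TMM scaling, filterByExpr (15480 genes kept) and a quasi-likelihood F test, with Benjamini-Hochberg adjustment over all genes tested. SE is the log2 fold change divided by the root of F. Each replicate pair exceeded Poisson noise (chi-square over its degrees of freedom 2.84 for LMO1, 2.70 for vector), so both libraries counted. Separate cultures are not stated in the labels, and the spread behind the p-values may therefore be technical. With 1 library on a side no test was made, and log2 ratios used CPM plus a pseudocount of 1, over genes reaching 5 CPM on either side. Intervals are exact (95% Poisson, or binomial for ratios) and cover counting error only, since the labels name no molecular identifiers. Lengths are unions of exons in GENCODE basic annotation of a later build.

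The 9 genes and the gene lists were chosen with earlier results of these data known. Named list genes are up to 6 called with the lowest adjusted p and up to 4 of the largest Kelly ratios, and some genes the rule names are not reported here. The fit was tested on simulated data. DESeq2 1.42.0 and limma 3.58.1 served as alternatives.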

Additional observations from a re-analysis of the deposited data

How the results depend on the processing

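Among alternatives to the LMO1 against vector test, CD200, ST8SIA1, B4GALNT1 and L1CAM were called higher in all 12, with log2 fold changes from 3.58 to 4.30, 0.62 to 0.78, 0.54 to 0.72 and 0.12 to 0.19. CD47 was called in 11 of 12 (0.15 to 0.22), with adjusted p from 0.000141 to 0.0512. CD276, GPC2 and NCAM1 were called in 0 of 12 and CD274 in 0 of 11, because a filter of 5 CPM removed it. With the replicate number as a block, 2473 genes were higher and 2374 lower, and 5 of the 9 genes were called higher. Same-numbered deviations correlated at -0.02, so the numbers are not treated as pairs. DESeq2 called 1749 higher and 1795 lower, and leaving out a library gave 1772 to 1914 higher and 1670 to 1745 lower. Total-count scaling gave 2735 higher and 1853 lower. The Kelly to parental ratio of CD47 changed sign, at 0.05, against the mean of all 5 BE2C libraries. Depth limits CD274, at 2 to 22 counts, and the vector level of CD200.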

Other observations

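Other surface proteins considered as neuroblastoma targets gave 9 higher and 3 lower of 18 tested with LMO1, with a median log2 fold change of 0.19. Over all genes tested 15.9% were higher and 15.1% lower. The list was chosen with earlier results of these data known. It includes CD24, which was also counted with the checkpoint ligands above. TNFRSF10B, a death receptor, rose by 1.41 (SE 0.0792), at 55.6 ± 0.855 CPM with LMO1, against 20.9 ± 1.66 CPM with vector (SD, n = 2 each). DLK1, a membrane protein of the Notch ligand family, rose by 0.48 (SE 0.027). The adhesion receptor CD44 rose by 1.39 (SE 0.177). The orphan receptor kinase ROR2 and the Notch ligand DLL3 fell, each by 0.59 (SE 0.0745 and 0.0952). SLC6A2, the noradrenaline transporter that takes up the imaging agent MIBG, averaged 552 ± 4.85 CPM with LMO1, against 535 ± 5.60 CPM with vector (SD, n = 2 each), and did not pass (edgeR adjusted p = 0.146). In Kelly SLC6A2 had 56.3 CPM, against 489.9 CPM in parental cells, and the receptor kinase ALK had 80.99 CPM, against 21.2 CPM.

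Of 15 genes that control CD274 or its trafficking, 3 were higher and 1 lower with LMO1, against 15.9% and 15.1% of all genes tested. IFNGR2, a subunit of the interferon gamma receptor, rose by 0.50 (SE 0.0914), and HIP1R, which routes CD274 to lysosomes, by 0.83 (SE 0.187). CMTM4, a stabiliser of CD274, fell by 0.38 (SE 0.0481).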
